A study of Mus musculus with 2 samples.

Results

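Transcripts of 43 cell cycle genes were followed through the cell classes of mouse dorsal skin in a single-cell 3' RNA experiment. The genes were given as a list of symbols, and they are 43 of the 55353 symbols in the gene table. They comprised 25 genes of G2 and mitosis (G2/M), 17 genes of DNA replication (S) and Stmn1, which encodes a microtubule-destabilising protein and was kept outside both phases. All cells came from C57BL/6 mice aged 7 weeks. The first library came from skin given imiquimod, which activates Toll-like receptors and inflames mouse skin much as psoriasis does. The second came from skin given imiquimod and Shi-Bi-Man, called the combined treatment here. The series title describes Shi-Bi-Man as a natural product and psoriasis as the condition studied. There was 1 library per group, so no difference below has a replicate behind it and no test between groups was run. How many animals entered each library is not given in the sources used here, and no untreated skin was analysed here.

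A dividing cell copies its DNA in S phase and separates the copies in mitosis. Cyclins switch on their partner kinases in turn, and the retinoblastoma proteins hold E2F factors back until D-type cyclins release them. Mouse epidermis renews itself from its basal layer, hair follicles grow from the hair matrix, and psoriasis-like inflammation adds dividing keratinocytes and leukocytes. Among the G2/M members, Ccna2, Ccnb1, Ccnb2 and Cdk1 encode mitotic cyclins and their kinase. Aurka, Aurkb, Plk1, Bub1 and Bub1b encode mitotic kinases and checkpoint proteins, and Cdc20 and Ube2c belong to the machinery that destroys cyclins. Cenpa, Cenpe and Cenpf encode centromere proteins, and Birc5 encodes a subunit of the complex that carries Aurora B. Tpx2, Kif11, Kif23, Prc1, Nusap1, Hmmr, Racgap1 and Anln serve the spindle and cytokinesis. Top2a encodes the topoisomerase that untangles sister chromosomes, and Mki67 the Ki-67 protein that coats them. Of the S members, Mcm2 to Mcm7 encode the replicative helicase, which Cdc6 and Cdt1 load and Gins2 activates. Pcna encodes the sliding clamp, Rfc2 a subunit of its loader, and Rrm1, Rrm2, Tyms and Tk1 enzymes of nucleotide supply. Hells and Uhrf1 encode proteins that maintain DNA methylation.

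The promoters of the members are shown because letters known as cell cycle elements were in different shares of G2/M and S members. RefSeq promoters (GRCm38.p6, 250 bases before to 50 after the start) matched 36 of the 43 members by symbol, with 39 promoters. The promoters of Aurkb, Ccna2, Tpx2, Mcm4, Rfc2, Gins2 and Stmn1 were not used here. 3 kinds of letters were searched on both strands. The cell cycle homology region (TTTGAA or TTCGAA) is bound by repressor complexes outside G2/M. The CCAAT box (CCAAT) is bound by NF-Y. The E2F letters were TTTCCCGC, TTTGCCGC, TTTCGCGC and TTTGGCGC, and overlapping matches were all counted. In the sequences below, capitals mark matches, and Ccnb2 and Mki67 (G2/M) and Pcna and Rrm2 (S) are the members of each phase with the most counts. Mcm6 (S) was added after its letters were seen, to show E2F matches. They lie at chr9:70421505-70421804, chr7:135716330-135716629, chr2:132253131-132253430, chr12:24708004-24708303 and chr1:128359656-128359955, on the minus strand except for Rrm2.
Ccnb2: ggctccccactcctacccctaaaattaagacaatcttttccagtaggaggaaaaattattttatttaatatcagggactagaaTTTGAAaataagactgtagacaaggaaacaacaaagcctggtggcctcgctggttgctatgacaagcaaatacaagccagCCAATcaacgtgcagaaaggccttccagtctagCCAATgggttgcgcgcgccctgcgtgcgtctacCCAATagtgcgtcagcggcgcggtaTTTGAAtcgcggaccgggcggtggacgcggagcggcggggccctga
Mki67: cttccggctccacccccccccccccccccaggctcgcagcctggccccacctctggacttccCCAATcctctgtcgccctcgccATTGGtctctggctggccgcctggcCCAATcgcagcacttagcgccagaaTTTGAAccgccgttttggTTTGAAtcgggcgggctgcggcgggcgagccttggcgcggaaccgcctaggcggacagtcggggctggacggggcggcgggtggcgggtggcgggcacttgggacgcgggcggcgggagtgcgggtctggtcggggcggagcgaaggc
Pcna: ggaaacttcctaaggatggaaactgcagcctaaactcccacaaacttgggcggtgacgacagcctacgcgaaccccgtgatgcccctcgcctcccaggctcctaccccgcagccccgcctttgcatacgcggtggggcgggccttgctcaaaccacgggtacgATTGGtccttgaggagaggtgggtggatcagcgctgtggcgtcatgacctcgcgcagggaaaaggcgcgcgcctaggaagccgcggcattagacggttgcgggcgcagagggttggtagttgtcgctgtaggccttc
Rrm2: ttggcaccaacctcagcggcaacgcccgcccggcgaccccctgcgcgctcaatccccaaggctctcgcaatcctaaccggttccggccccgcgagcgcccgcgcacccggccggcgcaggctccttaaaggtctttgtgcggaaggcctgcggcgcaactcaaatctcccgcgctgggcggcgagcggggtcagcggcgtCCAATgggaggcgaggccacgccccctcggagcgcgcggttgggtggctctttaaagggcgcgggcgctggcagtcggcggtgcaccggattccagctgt
Mcm6: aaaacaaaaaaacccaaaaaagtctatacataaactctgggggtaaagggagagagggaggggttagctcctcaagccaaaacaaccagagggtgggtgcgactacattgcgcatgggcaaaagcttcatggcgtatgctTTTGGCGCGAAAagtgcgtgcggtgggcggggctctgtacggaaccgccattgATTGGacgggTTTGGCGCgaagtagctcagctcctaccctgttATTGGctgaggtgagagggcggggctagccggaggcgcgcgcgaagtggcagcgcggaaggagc

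The cell cycle homology letters were in 19 of 23 G2/M promoters (82.6%) and in 2 of 16 S promoters (12.5%), against 19.2% of all 32851 promoters of this length. The E2F letters went the other way, with 1 of 23 G2/M promoters (4.35%, Cdk1) and 8 of 16 S promoters (50%), against 2.26% of all. CCAAT was in 20 of 23 (87%), 11 of 16 (68.8%) and 37.4%. The Mki67 and Ccnb2 promoters each held 2 homology matches and 3 CCAAT matches, and that of Top2a 4 and 6. The printed Pcna and Rrm2 windows held 1 CCAAT match each and no E2F letters, while that of Mcm6 held 3 E2F matches. These matches are a description of letters. Mcm7, Prc1 and Uhrf1 have 2 promoters each in the table.

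After filtering, 11019 cells of the imiquimod library and 7863 of the combined-treatment library were used, with medians of 1616 and 1780 counts. The 2 libraries shared 49 cell barcodes. Cells were clustered without the cell cycle genes, and clusters were named from fixed markers, so that a name such as fibroblast-like rests on RNA alone. Clusters 8, 20 and 22 stayed unnamed and are called by number. A cycling cell is one with at least 1 count of Mki67 or Top2a after each cell was thinned to 500 counts, because deeper cells show more genes. Levels are CPM, the counts of a gene per 1000000 counts summed over a class. Ratios are log2 of combined treatment over imiquimod. Brackets give 95% intervals, which cover counting error only and treat counts as independent molecules, although a few cells hold many of them. Mki67 (ENSMUSG00000031004) spans 135689784 to 135716361 on chromosome 7 and Top2a (ENSMUSG00000020914) 98992943 to 99024189 on chromosome 11 (GRCm38).

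Of the 43 members, 42 had counts, and Cdt1 was listed at 0 in every cell of both libraries. The members kept company in the same cells. Without thinning, 1755 and 1092 cells had Mki67 or Top2a, and these were deeper than the rest, with medians of 3162 and 3424 counts against 1442 and 1629. They held 26.9% and 23.2% of all counts. Of the counts of Plk1, however, 93.4% and 89.3% lay in them, of Ccnb2 82.9% with imiquimod, and of Cenpa, the lowest G2/M member with imiquimod, 70.3% (73.4% with the combined treatment). S members were spread more widely. Tk1 had 81.6% and 83.7% of its counts there and Rrm2 75.7% and 76.7%, but Pcna 40.1% and 42.8%, and Pcna was also found in 16.4% and 15.9% of the other cells. Stmn1 stood at 73.1% and 74.4%. Of the cells with Mki67 or Top2a, 60% and 59.7% also held at least 2 of the other G2/M members, and 27.5% in each library held none.

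**Figure D1:**
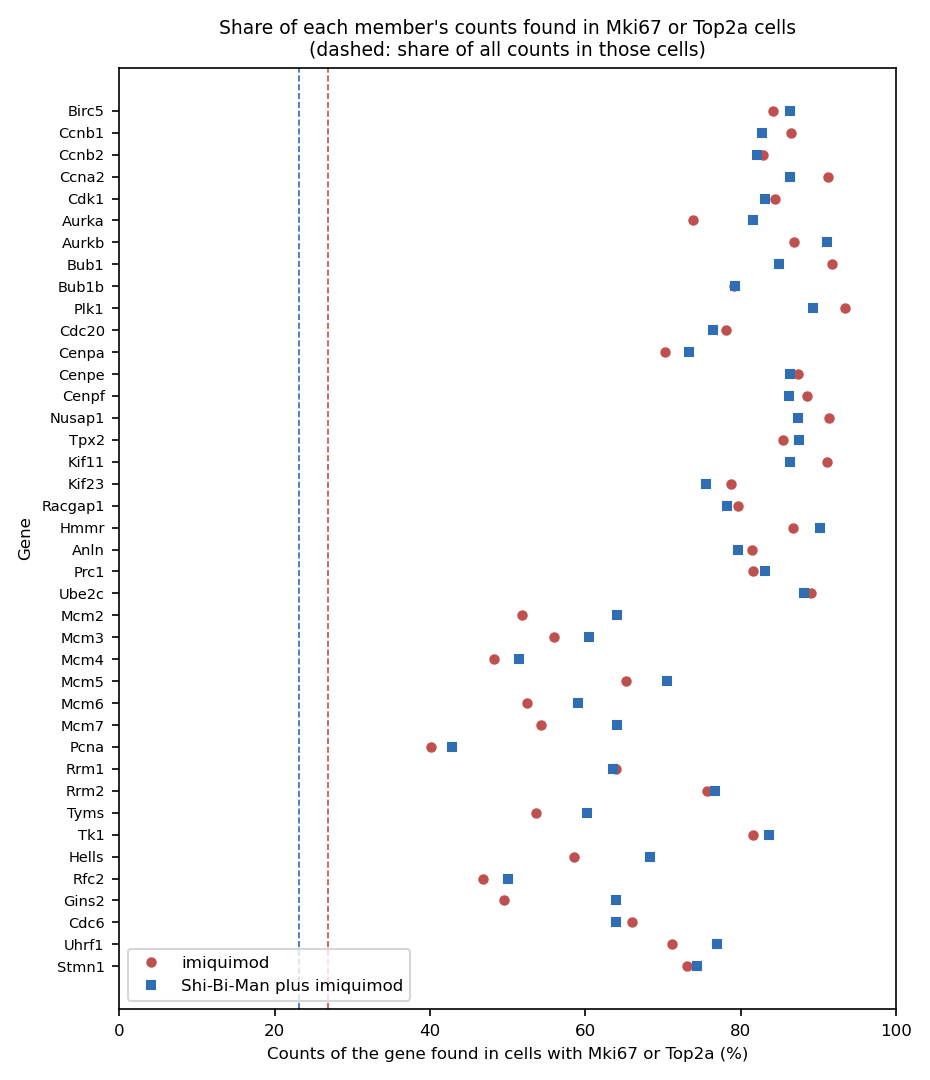
Share of the counts of each member (y axis, G2/M members above, S members below) that lay in cells with Mki67 or Top2a (x axis, %), in the imiquimod library (red circles) and the combined-treatment library (blue squares). Dashed lines give the share of all counts in those cells (26.9% and 23.2%), and every member shown lies to the right of them, with Pcna nearest at 40.1% and 42.8%.

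Over all cells the share of cycling cells after thinning was nearly the same in both libraries. It was 6.60% (6.14 to 7.08) with imiquimod and 6.10% (5.59 to 6.66) with the combined treatment. Without thinning it was 15.9% (15.2 to 16.6) and 13.9% (13.1 to 14.7), whose intervals do not overlap. Which classes supplied those cells differed. Of the cycling cells, 40.2% were T and NK cell-like with imiquimod and 7.92% with the combined treatment. Cluster 22, led by the follicle genes Krt71, Krt28 and Lhx2, made up 2.61% and 28.8%. Fibroblast-like cells made up 7.15% and 16.5%, and Langerhans cell-like cells 9.77% and 1.25%. The size of each class also differed between the libraries and enters these figures. With imiquimod 22.8% of all cells, dividing or not, fell in the T and NK class, against 6.49% with the combined treatment. In the same order, cluster 22 held 2.2% and 7.13% of all cells. The fibroblast class held 18.7% and 28.9%, and the Langerhans class 5.53% and 0.878%. In 13 classes and clusters with at least 100 cells in each library, the share of cycling cells was 6.30% and 6.61%. Weighted to 1 common mix of these 13, it was 5.64% (counting SE 0.239) and 6.58% (0.329), a log2 ratio of 0.22. With the combined-treatment mix as weights, the ratio was 0.41, and without thinning 0.01. Pericyte and smooth muscle-like cells, the class fixed as a low-cycling reference, stood at 0.885% (0.107 to 3.16) and 1.07% (0.130 to 3.81). Without thinning this was 4.42% and 1.60%, at median depths of 1609 and 1192 counts. Of the 10 pericyte and smooth muscle-like cells with Mki67 or Top2a with imiquimod, 4 held at least 2 other G2/M members, and 1 cell held 35.2% of the G2/M counts, so this share is not a measure of free RNA alone. Free RNA itself was not measured. Of the 42 members measured over all cells, 3 were at least 1.5-fold higher with the combined treatment (15% of all genes were) and none was 1.5-fold lower (13.7% of all genes were). The 3 were Uhrf1 (0.86), Anln (0.70) and Cdc6 (0.66), and the median of the members was 0.19, against 0.04 over all genes.

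**Figure D2:**
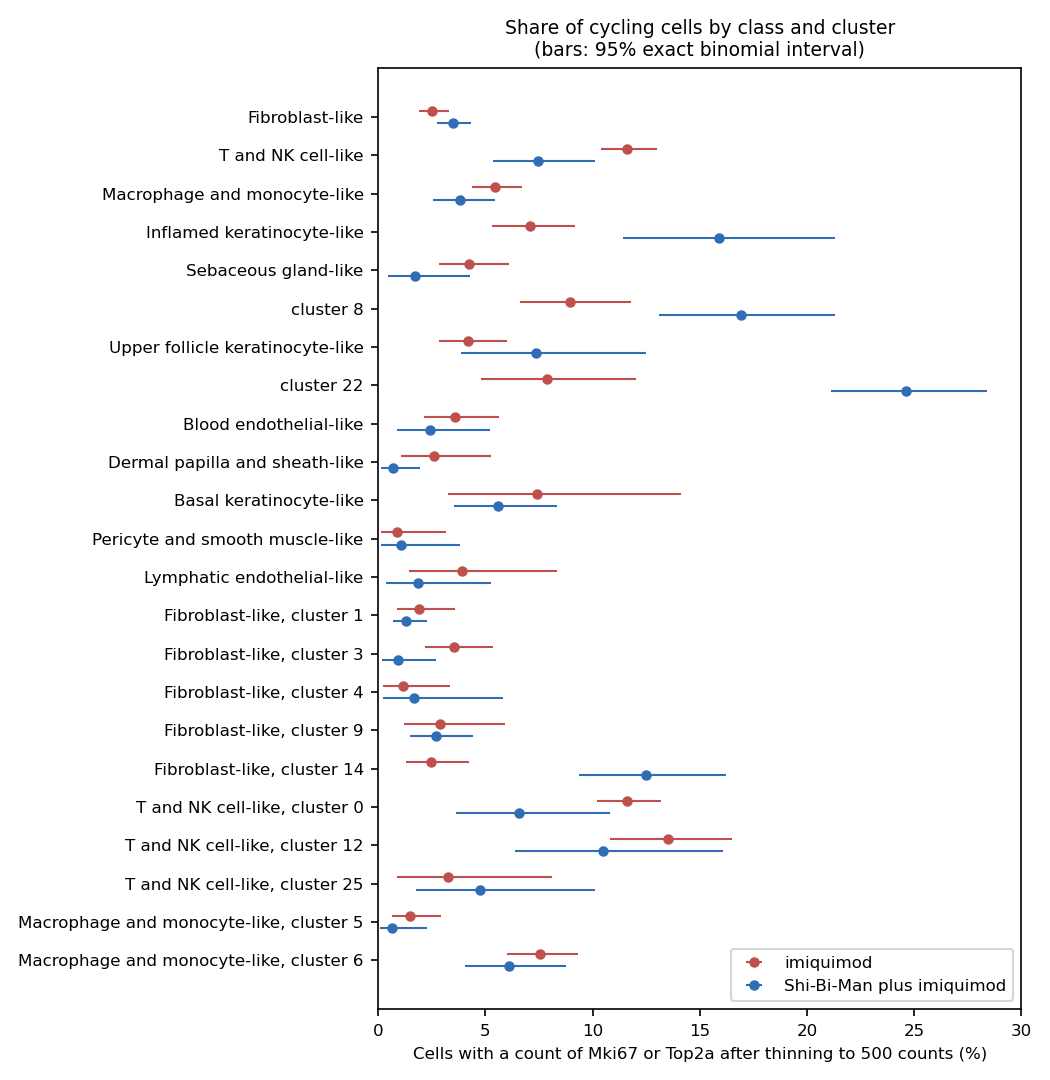
Share of cycling cells (x axis, %, after thinning to 500 counts) in each class, and in each cluster of the 3 classes with several clusters (y axis), with imiquimod (red) and the combined treatment (blue). Points are shares of 1 library each and bars their 95% exact binomial intervals. The intervals of cluster 22, cluster 8, fibroblast-like cluster 14 and inflamed keratinocyte-like cells lie higher with the combined treatment, and that of T and NK cell-like cells lies lower.

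T and NK cell-like cells had the most cycling cells with imiquimod, and their cell cycle transcripts were lower with the combined treatment, G2/M members more than S members. The share was 11.6% (10.4 to 13) of 2510 cells and 7.45% (5.33 to 10.1) of 510 cells, a log2 ratio of -0.63, with median depths of 1005.5 and 780.5 counts. The mix of clusters in the class enters this ratio, since cluster 25, with few cycling cells, held 123 of the 2510 cells and 126 of the 510. In each of the 3 clusters taken alone, the intervals of both libraries overlap. Summed G2/M members stood at 2375 and 1347 CPM (-0.82, -0.93 to -0.70), and S members at 1335 and 1115 CPM (-0.26, -0.39 to -0.13). Of 25 G2/M members, 16 were at least 1.5-fold lower and none higher, where 16% of all genes measured in the class were lower and 19.5% higher. Their median was -0.68 against 0.03 over all genes. Mki67 stood at 319 and 179 CPM (-0.83, -1.17 to -0.52) and Top2a at 336 and 224 CPM (-0.58, -0.88 to -0.30). Nusap1, which bundles spindle microtubules, had 353 and 13 counts (-2.08, -3.05 to -1.34), Ccna2 134 and 5 (-1.98), and Aurkb 63 and 1 (-2.77, -8.67 to -0.81). Of 16 S members, 6 were lower, among them Rrm2 at 178 and 83.5 CPM (-1.07), and Cdc6 was higher on 38 and 11 counts (0.89, -0.27 to 1.84). Pcna stood at 232 and 259 CPM (0.16, -0.13 to 0.43), so its counts could not tell the libraries apart. In the combined-treatment library, 12 cells held 50% of the G2/M counts of the class, and 1 cell 7.85%. Haemoglobin genes stood at 5750 and 2508 CPM and spinous keratinocyte markers at 1394 and 4189 CPM in these cells, and their part in the result was not tested.

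The clusters inside this class differed in how far they shared this. Cluster 0, led by Il17a, Il17f and Cd163l1, genes of IL-17-producing γδ T cells, had 11.6% (10.2 to 13.2) of 1800 cells cycling and 6.57% (3.64 to 10.8) of 213. At a finer clustering the gap in its Il17a and Il17f part was smaller, at 12.5% (10.7 to 14.4) of 1324 and 10.3% (4.84 to 18.7) of 87 cells. Its part led by Klrg1 and Ccl5 had 6.8% (2.78 to 13.5) of 103 and 0 of 53 cells cycling, the latter allowing up to 6.72% by its exact interval. Its G2/M sum stood at 2408 and 1064 CPM (-1.18, -1.37 to -0.99). Of its 42 measured members, 25 were lower (18.6% of all genes) and 4 higher (23.6% of all genes). The 4 were Bub1b, Anln, Tyms and Cdc6, each with at most 15 counts in the combined-treatment library. Its Plk1 had 57 counts and 0, at least 1.90-fold lower when 3 counts are set for the library at 0, and its Aurkb 46 and 0, at least 1.53-fold lower. Cluster 12, led by Ccl5, Ifng and Klrg1, genes of type 1 and cytotoxic cells, had 13.5% (10.8 to 16.5) of 587 and 10.5% (6.36 to 16.1) of 171 cells cycling. Its G2/M sum, at 2496 and 2157 CPM (-0.21, -0.38 to -0.05), was nearer to equal. Of its 37 measured members, 11 were lower (19.9% of all genes) and 2 higher (14.8% of all genes), Hells (0.78) and Prc1 (0.68), with intervals that include 0. The difference between the clusters was not tested. Cluster 25, led by Trat1, Cd7 and Xcl1, had 3.25% and 4.76% of 123 and 126 cells cycling, with intervals from 0.893 to 8.12 and from 1.77 to 10.1.

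Macrophage and monocyte-like cells as a class also carried less of the cell cycle transcripts with the combined treatment, in both phases. Summed S members stood at 672 and 447 CPM (-0.59, -0.74 to -0.44) and G2/M members at 984 and 568 CPM (-0.79, -0.92 to -0.67). Of 42 measured members, 23 were at least 1.5-fold lower (11.6% of all genes in the class) and none was higher (13.8% of all genes), with a median of -0.69 against 0.02. Mki67 stood at 128 and 51.0 CPM (-1.32, -1.77 to -0.92) and Top2a at 119 and 65.8 CPM (-0.85). Tyms, which makes thymidylate, had 89 and 9 counts (-1.94, -3.18 to -1.02), Racgap1 73 and 9 (-1.65), and the mitotic kinase gene Cdk1 86 and 12 (-1.49). Stmn1 stood at 87.4 and 32.4 CPM (-1.41, -1.99 to -0.91). The share of cycling cells was 5.46% (4.38 to 6.70) of 1558 cells and 3.82% (2.57 to 5.43) of 760, and these intervals overlap. Without thinning the shares were 11.8% (10.2 to 13.5) and 6.45% (4.81 to 8.43), whose intervals do not overlap, at median depths of 1414 and 1233 counts. After thinning, cluster 6, led by Ear2, Lyz1 and Mpeg1, had 7.53% (5.99 to 9.32) of 1023 and 6.09% (4.05 to 8.74) of 443. Its S members stood at 802 and 492 CPM (-0.70) and its G2/M members at 1276 and 825 CPM (-0.63). Cluster 5, led by Cd209f and Folr2, genes of resident dermal macrophages, had 1.5% (0.648 to 2.93) and 0.631% (0.0765 to 2.26), and its Mki67 had 31 counts and 0, at least 5.44-fold lower. This difference depended on which cells fell in the cluster. Clustered with 20 components, its Mki67 ratio was -0.06 (-5.05 otherwise) and its Top2a ratio 0.76 (-0.33 otherwise). The S members of cluster 5 stood at 398 and 383 CPM (-0.05, -0.33 to 0.21), so their counts could not tell the libraries apart. Cluster 5 held 535 of the 1558 cells and 317 of the 760, so the mix of clusters enters the class values. In the combined-treatment library, 14 cells held 50% of the G2/M counts of the class, and 1 cell 6.69%. With means over cells in place of sums, 15 of the members of the class were lower.

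Langerhans cell-like cells numbered 609 and 69, too few with the combined treatment to be compared. Their cycling share was 11.7% (9.22 to 14.5) and 8.70% (3.26 to 18), and without thinning 30.9% and 11.6%. Their G2/M sum was 2215 CPM with imiquimod and 1020 CPM with the combined treatment, where 2 cells held 50% of the counts.

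Fibroblast-like cells as a class differed little in the share of cycling cells, at 2.52% (1.89 to 3.29) of 2062 and 3.48% (2.76 to 4.31) of 2272 cells. Their S members were higher with the combined treatment, at 395 and 587 CPM (0.57, 0.49 to 0.66), while G2/M members stood at 642 and 675 CPM (0.07, 0 to 0.14). Of 16 S members, 10 were at least 1.5-fold higher (9.59% of all genes measured) and none lower (10.6% of all genes), with a median of 0.61 against 0.02. Hells (1.23), Mcm5 (1.0) and Mcm2 (0.98) had the highest ratios among members with at least 50 counts. The highest ratio of all measured S members was 3.90, on fewer counts. Of 25 G2/M members, Bub1 was higher (0.70) and Aurka (-0.77) and Bub1b (-0.61) were lower, the last 2 with intervals that include 0. Mki67 stood at 64.9 and 60.4 CPM (-0.10, -0.34 to 0.13) and Top2a at 78.8 and 66.6 CPM (-0.24, -0.46 to -0.02).

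The near balance in the cycling share and the G2/M members was the sum of clusters with opposite values. Cluster 14, led by Coch, Kera, Fmod and Lrrc15, genes of matrix-rich fibroblasts, had 2.45% (1.27 to 4.25) of 489 and 12.5% (9.34 to 16.2) of 385 cells cycling, a log2 ratio of 2.30. Without thinning these were 6.75% and 22.6%. All 40 measured members were at least 1.5-fold higher with the combined treatment, where 20.4% of all genes were, with a median of 1.88 against 0.06. S members stood at 508 and 1824 CPM (1.84, 1.69 to 2.0) and G2/M members at 771 and 2856 CPM (1.89, 1.77 to 2.01). Mki67 stood at 93.5 and 250 CPM (1.41) and Top2a at 86.7 and 270 CPM (1.64). Tk1, a thymidine kinase of S phase, had 8 and 78 counts (3.13, 2.16 to 4.47), Hells 14 and 116 (2.93) and Racgap1 12 and 85 (2.70). Tyms had the lowest ratio among members with at least 50 counts, at 0.95 (0.43 to 1.5). With imiquimod 6 cells held 50% of the G2/M counts, and 1 cell 19.4% of them. Without the cell of most G2/M counts in each library the median was 2.04. Fibroblast markers stood at 40974 and 27292 CPM in the cells of this cluster with Mki67 or Top2a. All cycling cells fell in its larger part at a finer clustering, at 2.86% of 420 and 13.7% of 351 cells.

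Cluster 3, led by Thbs4, Myoc and Gpx3, had the opposite values. Its share was 3.52% (2.19 to 5.33) of 597 and 0.932% (0.193 to 2.70) of 322 cells, and these intervals overlap. Without thinning it was 8.38% (6.28 to 10.9) and 3.11% (1.5 to 5.64), whose intervals do not overlap. G2/M members stood at 1014 and 136 CPM (-2.89, -3.20 to -2.60) and S members at 474 and 263 CPM (-0.85, -1.09 to -0.62). All 23 measured G2/M members and 10 of 14 S members were at least 1.5-fold lower, where 14.9% of all genes were. Ube2c, the ubiquitin-conjugating enzyme of mitotic exit, had 81 and 1 counts (-4.55, -10.44 to -2.60), Nusap1 53 and 1 (-3.94) and Prc1 165 and 5 (-3.69). Ccnb1 had 38 counts and 0, at least 5.45-fold lower, and Cenpa 43 and 0, at least 6.17-fold lower. These levels rest on few cells. With imiquimod 6 cells held 50% of the 1695 G2/M counts, and 1 cell 15.3%. Without the cell of most G2/M counts in each library, the median of the members was -2.13, against -2.0 with it. Cluster 9, led by Sema3a, Igfbp2 and Mme, had 2.90% and 2.67% of cells cycling but a G2/M sum of 596 and 262 CPM (-1.18). Cluster 1, led by Cyp2f2, Saa3 and Cpxm1, had 1.89% and 1.31%.

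**Figure D3:**
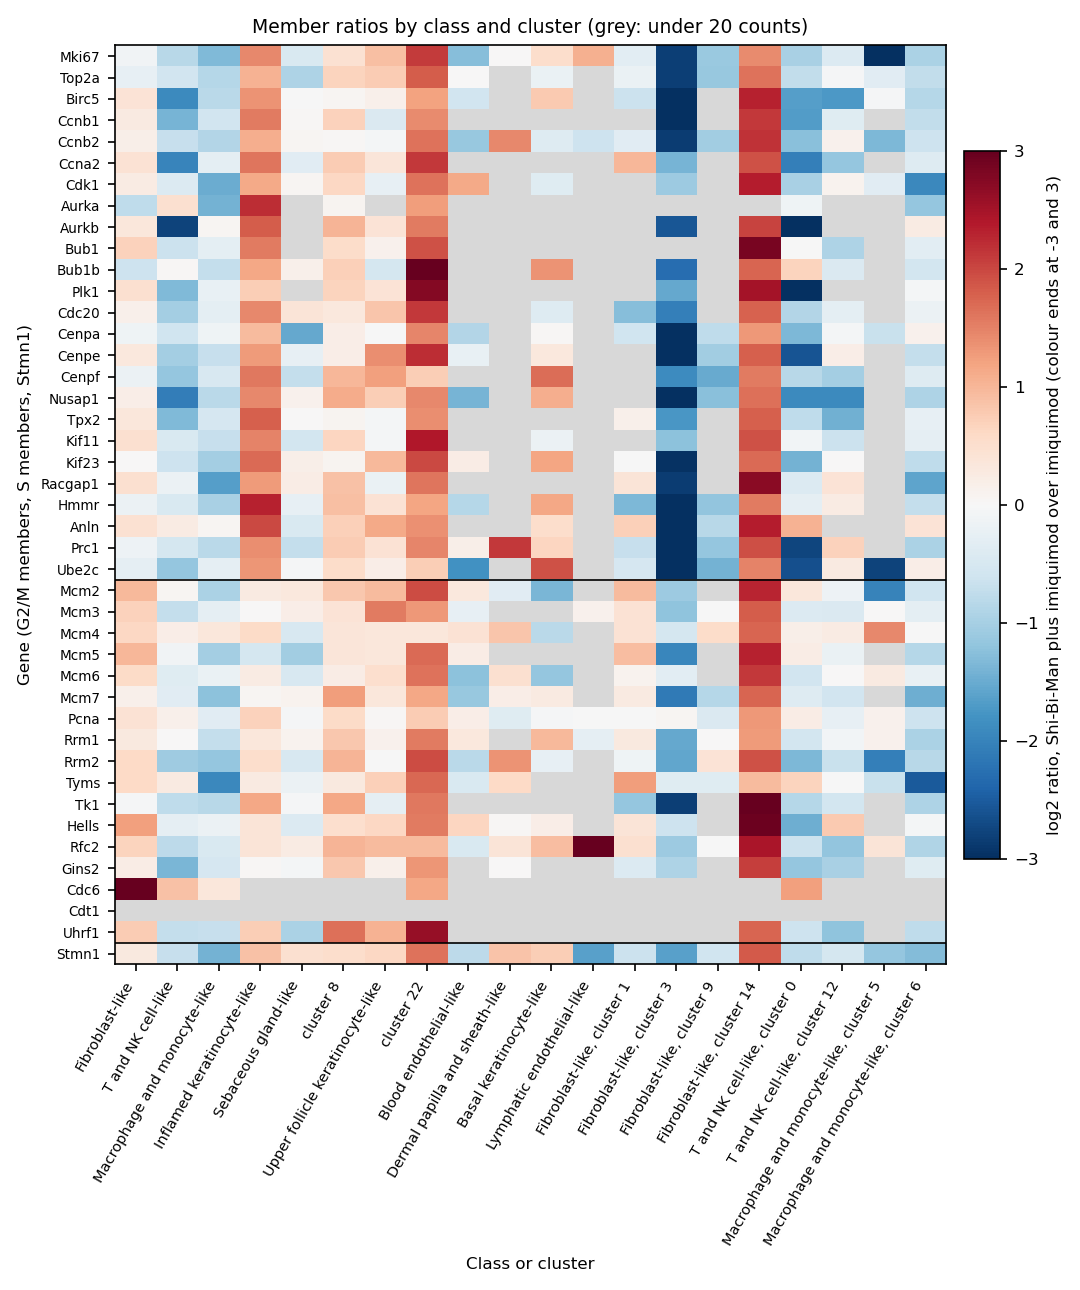
Log2 ratio of combined treatment over imiquimod (colour, red higher, blue lower, ends at -3 and 3) for each member (rows, G2/M, S and Stmn1 divided by lines) in each class or cluster with at least 5 measured members (columns). Grey cells had under 20 counts. Fibroblast-like cluster 14 and cluster 22 are red through both phases, fibroblast-like cluster 3 is blue mostly in G2/M, and inflamed keratinocyte-like cells are red in G2/M and pale in S.

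Inflamed keratinocyte-like cells, marked by the stress keratin gene Krt6b and by S100a8 and S100a9, held more G2/M transcripts with the combined treatment while their S transcripts differed less. G2/M members stood at 988 and 2500 CPM (1.34, 1.25 to 1.42) and S members at 492 and 641 CPM (0.38, 0.22 to 0.54). All 25 G2/M members were at least 1.5-fold higher, where 20.3% of all genes were, with a median of 1.43 against 0.08. Mki67 stood at 110 and 296 CPM (1.43, 1.17 to 1.68) and Top2a at 107 and 223 CPM (1.05). Hmmr, a hyaluronan receptor that also sits on the spindle, stood at 18.3 and 91.0 CPM (2.32, 1.78 to 2.84), the actin-binding Anln at 22.4 and 87.8 CPM (1.98) and Tpx2 at 26.7 and 92.7 CPM (1.80). Of 15 S members, 3 were higher, Tk1 (1.16), Uhrf1 (0.74, -0.56 to 1.76) and Pcna (0.68), and Mcm5, Mcm3 and Gins2 stood at -0.53, 0.02 and 0.03 with intervals that include 0. The share of cycling cells was 7.07% (5.32 to 9.16) of 736 and 15.9% (11.4 to 21.3) of 227 cells. Median depth was 4790 and 2345 counts, and without thinning the shares were 28.9% and 33.0%, so that the ratio of 1.17 was 0.19. Called by at least 2 counts over the S members instead, it was 0.06. The cells with Mki67 or Top2a also differed in identity, with inflamed keratinocyte markers at 22496 and 5170 CPM and basal keratinocyte markers at 17337 and 24401 CPM, and the part of this in the result was not tested.

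Cluster 22 held the highest share of cycling cells of all compared classes with the combined treatment, at 24.6% (21.1 to 28.4) of 561 cells against 7.85% (4.79 to 12) of 242 with imiquimod. Without thinning these were 52.4% and 19.8%. Of its 42 measured members, 41 were at least 1.5-fold higher with the combined treatment, where 29.9% of all genes were, with a median of 1.58 against 0.23. Mcm4 was the exception, at 78.8 and 99.4 CPM (0.33, -0.10 to 0.79). Mki67 stood at 114 and 493 CPM (2.10, 1.78 to 2.46), Top2a at 132 and 469 CPM (1.82), and Bub1b, a checkpoint kinase gene, had 2 and 90 counts (3.68, 2.10 to 7.06). Plk1 stood at 8.44 and 61.6 CPM (2.76) and Uhrf1 at 16.9 and 108 CPM (2.62). S members stood at 982 and 2650 CPM (1.43) and G2/M members at 1197 and 3773 CPM (1.66). Scaling by TMM or DESeq2 factors lowers each ratio in this cluster by 0.24 or 0.25. The libraries did not fill this cluster with the same cells. Genes of the inner root sheath, a product of the hair matrix, were nearly absent with imiquimod, with 10 and 898 counts of Krt71, 2 and 714 of Krt28 and 0 and 612 of Krt25. At a finer clustering, the part led by Atp6v1b1 and Lhx2, an outer root sheath gene, had 8.29% (4.71 to 13.3) of 181 and 23.9% (19.8 to 28.5) of 389 cells cycling. The part led by Krt25 and Krt73 had 6.67% (1.40 to 18.3) of 45 and 22.9% (16.6 to 30.3) of 157. With imiquimod the whole cluster held 0 counts of Krt25 and of Krt73, against 612 and 513 with the combined treatment. So neither gene marks the 45 imiquimod cells of this part.

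Cluster 8 held all 8 basal keratinocyte markers but was led partly by haemoglobin genes, and had 8.95% (6.63 to 11.8) of 514 and 16.9% (13.1 to 21.3) of 349 cells cycling. Without thinning the ratio of 0.91 was 0.27, at median depths of 2206.5 and 1274 counts. Of its 41 measured members, 22 were higher (15% of all genes) and none lower (8.95% of all genes). That count was 5 with at least 500 genes per cell and 42 at Leiden resolution 0.5, and which cells fall in this cluster varies with the clustering. At a finer clustering its basal keratinocyte-like part had 11.2% (8.19 to 14.8) of 375 and 19.6% (15.2 to 24.7) of 285 cells cycling. Basal keratinocyte-like cells of cluster 18 had 7.41% (3.25 to 14.1) of 108 and 5.6% (3.54 to 8.35) of 393, and upper follicle keratinocyte-like cells 4.20% (2.81 to 6.01) and 7.36% (3.86 to 12.5), with intervals that overlap. The G2/M sum of the basal keratinocyte-like cells went against their share, at 691 and 960 CPM (0.47, 0.25 to 0.70). Of their 27 measured members, 11 were higher (17.3% of all genes) and 3 lower (18.5% of all genes). Sebaceous gland-like cells had 4.23% and 1.69%, blood endothelial-like cells 3.59% and 2.42%, lymphatic endothelial-like cells 3.92% and 1.84%, and dermal papilla and sheath-like cells 2.58% and 0.670%. All of these intervals overlap too. Without thinning, the shares in blood endothelial-like cells were 12% (9.25 to 15.1) and 4.84% (2.52 to 8.3), whose intervals do not overlap, and the log2 ratio was -1.26 against -0.49 with thinning. In sebaceous gland-like cells 6 of 37 measured members were lower (9.43% of all genes) and none higher (15.6% of all genes). In upper follicle keratinocyte-like cells 15 of 40 were higher (24.5% of all genes). In dermal papilla and sheath-like cells 6 of 14 were higher (31.9% of all genes), and their G2/M sum of 117 and 318 CPM went against the share. Scaling by TMM or DESeq2 factors lowers each ratio by 0.27 or 0.26 in the latter and by 0.14 or 0.15 in the former. In blood endothelial-like cells 10 of 25 measured members were lower (18.5% of all genes) and Cdk1 (1.13) and Hells (0.65) higher (13.5% of all genes).

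**Figure D4:**
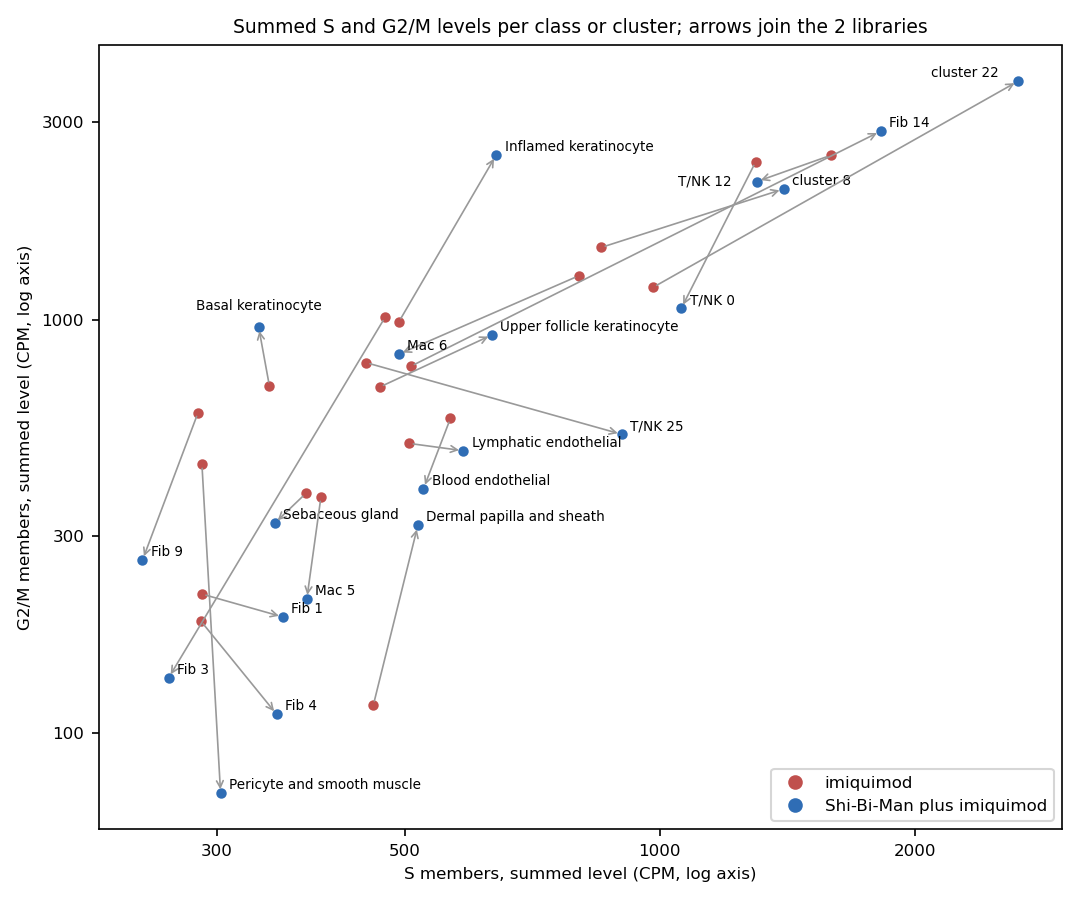
Summed CPM of the S members (x axis, log) against the G2/M members (y axis, log) in each class or cluster, with an arrow from imiquimod (red) to the combined treatment (blue). Fib, T/NK and Mac stand for fibroblast-like, T and NK cell-like and macrophage and monocyte-like clusters. The arrow of inflamed keratinocyte-like cells is steep, from 988 to 2500 CPM in G2/M, and those of cluster 22 and fibroblast-like cluster 14 rise along both axes.

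The balance of the phases was read inside cycling cells as the S share of S and G2/M counts, with Mki67 and Top2a left out because they chose the cells. Over all cells it was 34.0% and 40.2%. In inflamed keratinocyte-like cells it was 32.4% with imiquimod and 18.6% with the combined treatment. Cluster 22 went from 37.4% to 46.9%, fibroblast-like cells from 30.3% to 40.0%, and T and NK cell-like cells from 36.1% to 38.8%. Within the last class, cluster 0 stood at 34.6% and 47.2%, the latter on 28 cells, and cluster 12 at 41.0% and 34.1%. Macrophage and monocyte-like cells stood at 39.8% and 36.3%, sebaceous gland-like cells at 44.1% and 36.0%, and cluster 8 at 31.4% and 39.7%. Basal keratinocyte-like cells stood at 27.4% (20.1 to 35.7) and 20.8% (17.7 to 24.1), on 21 and 61 cells. Over all cells of a class, with Mki67 and Top2a counted, the share went the other way in 3 of these. Only in cluster 22 were the intervals of both libraries apart on both readings. It was 45.1% and 41.3% in cluster 22, 40.6% and 44% in macrophage and monocyte-like cells, and 50.1% and 52.1% in sebaceous gland-like cells. It kept its direction in inflamed keratinocyte-like cells, at 33.2% and 20.4%, in fibroblast-like cells, at 38.1% and 46.5%, in T and NK cell-like cells, at 36% and 45.3%, and in cluster 8, at 36.3% and 40.4%. It also did so in basal keratinocyte-like cells, at 33.3% and 25.9%. The intervals of both libraries overlapped on both readings in basal keratinocyte-like and in macrophage and monocyte-like cells. Over all cells they overlapped in sebaceous gland-like cells, at 48.2 to 52 and 48.8 to 55.4. Inside cycling cells they overlapped in T and NK cell-like cells, at 35 to 37.2 and 34.8 to 42.9, and in their cluster 12. No direction is read from these overlapping values. Counts of 1 cell are not independent, so the intervals of these shares are too narrow.

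**Figure D5:**
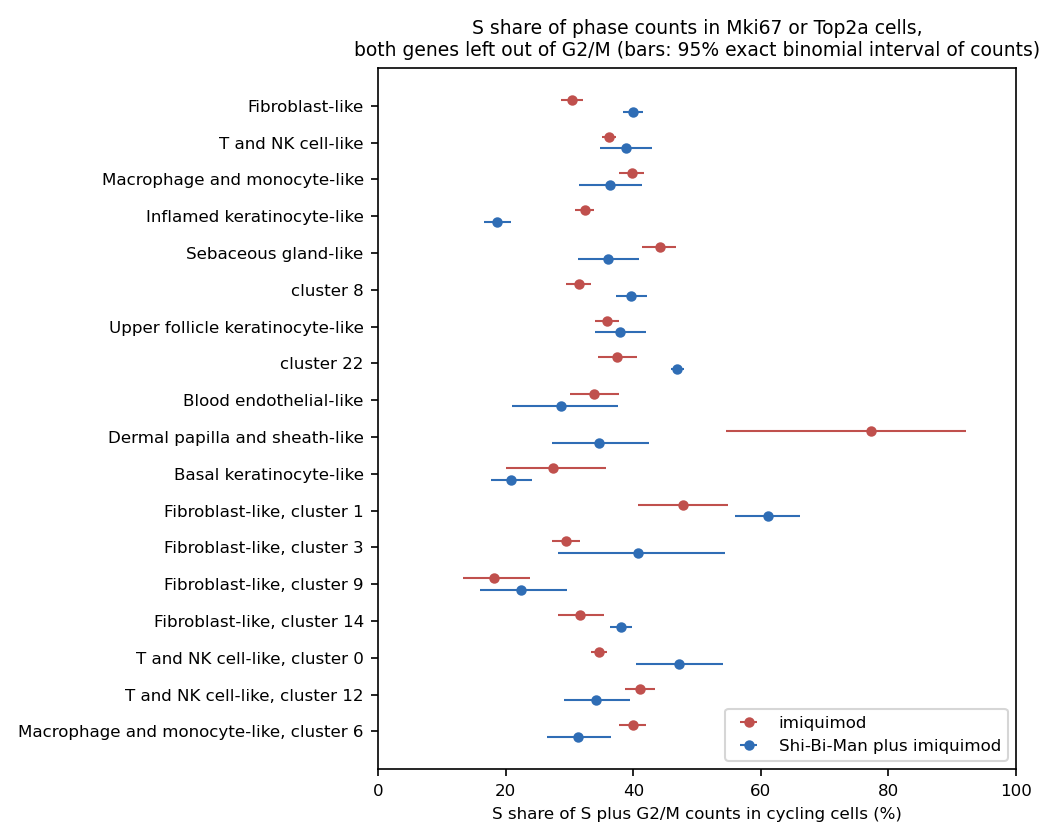
S share of S plus G2/M counts (x axis, %) in cells with Mki67 or Top2a, both genes left out, for each class or cluster with at least 10 such cells in each library (y axis). Points are single libraries (red imiquimod, blue combined treatment) and bars are 95% exact binomial intervals of counts. Inflamed keratinocyte-like cells lie at 32.4% and 18.6%, and cluster 22 at 37.4% and 46.9%.

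Other cell cycle genes were read from 4 further lists. The medians of replication and mitosis genes outside the 43 members did not share the sign of the members everywhere. They did in fibroblast-like cluster 14, cluster 22, inflamed keratinocyte-like cells and macrophage and monocyte-like cells. In T and NK cell-like cluster 12 the members had a median of -0.30 and the mitosis genes 0.21. For members and replication genes, macrophage and monocyte-like cluster 5 had -0.33 and 0.41, and sebaceous gland-like cells -0.04 and 0.13. Of 33 measured mitosis genes in fibroblast-like cluster 14, 32 were higher (median 1.72, with 20.4% of all genes higher), with ratios up to 3.83. Among them was Ndc80, a kinetochore gene, with 4 and 46 counts (3.29, 1.99 to 5.38). In inflamed keratinocyte-like cells 30 of 33 were higher (median 1.19, with 20.3% of all genes higher), and in cluster 22 35 of 37 (1.65, with 29.9%). In macrophage and monocyte-like cells 17 of 29 were lower (-0.80, with 11.6% of all genes lower). Of the replication genes, 21 of 22 were higher in fibroblast-like cluster 14 (1.55) and 25 of 27 in cluster 22 (1.49). In macrophage and monocyte-like cells 10 of 22 were lower (-0.50), among them Fen1, the flap endonuclease gene, with 109 and 8 counts (-2.39).

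G1 drivers push cells out of rest, and brakes hold them there. Ccnd1, the cyclin D1 gene, was higher with the combined treatment over all cells, at 36.2 and 72.0 CPM (0.99, 0.88 to 1.11). It stood at 43.3 and 142 CPM (1.70) in fibroblast-like cluster 14 and at 27.4 and 71.5 CPM (1.39) in inflamed keratinocyte-like cells, and Ccnd2 at 167 and 536 CPM (1.67) in cluster 22. Larger Ccnd1 ratios stood in upper follicle keratinocyte-like cells (11.5 and 68.6 CPM, 2.57) and fibroblast-like cluster 1 (12.1 and 65.9 CPM, 2.40). The cycling share of that cluster 1 was 1.89% and 1.31%, and its members had a median of -0.01. Whether Ccnd1 goes with cycling was not tested. Ccnd1 was lower in T and NK cell-like cluster 12, on 54 and 5 counts (-1.35, -3.16 to -0.17). Pericyte and smooth muscle-like cells had 18 and 5 counts of it (-0.97, -2.86 to 0.41). The mix of classes, which differed between the libraries, enters the Ccnd1 ratio over all cells. In cluster 22 9 of 13 G1 drivers were higher, where 29.9% of all genes were, and Myc alone was lower, where 12.8% of all genes were, at 304 and 155 CPM (-0.97, -1.22 to -0.71). In T and NK cell-like cells only 2 of 13 G1 drivers were higher and 2 lower, near the 19.5% and 16% of all genes. They were Myc (0.60, 0.13 to 1.03) and Cdc25a (0.61, -0.90 to 1.75), and Cdk2 (-1.18, -2.77 to -0.11) and Ccne1 (-0.88, -4.29 to 0.81). Of 11 brakes in fibroblast-like cluster 14, 3 were higher and 3 lower, where 20.4% and 15% of all genes were. Rbl1 (2.33), Cdkn2c (1.28) and Cdkn2d (1.09) were higher and Gadd45a (-1.44), Cdkn1b (-1.27) and Btg1 (-0.60) lower. Cdkn1b encodes p27, which blocks cyclin-dependent kinases in resting cells. Of 11 measured brakes in macrophage and monocyte-like cells, 1 was lower, Rbl1 (-1.34), near the 11.6% of all genes. None was higher, where 13.8% of all genes were. Cdkn1a, the gene of p21, stood at 766 and 627 CPM (-0.29, -0.42 to -0.16) in these cells.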

How the data were processed

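RNA of dorsal skin cells was read in 2 libraries, named for imiquimod and for its combination with Shi-Bi-Man. The deposited matrices give raw counts as whole numbers, with genes and barcodes per the file headers. Per the submitters' processing notes, the genome was mm10 or GRCm38. The aligner, the cell-calling rule and whether molecules were collapsed are not given in the sources used here. Groups follow the treatment in the labels. The libraries held 28920316 and 20837259 counts in 11316 and 8054 barcodes, with at least 500 counts in each. Cells with fewer than 200 genes or over 20% mitochondrial counts were dropped. Scrublet, at an assumed doublet rate of 8%, marked 83 of 7946 cells (1.04%) in the combined-treatment library, which were removed, and 0 of 11019 in the imiquimod library, where doublets were therefore not removed. Its score threshold there was not examined further.

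Cells were clustered with scanpy 1.11.5 (2000 variable genes, 30 components, 15 neighbours, Leiden resolution 1), with 285 cell cycle and histone genes left out. A cluster was named from 3 or more markers at least 2-fold higher than elsewhere and in 10% of its cells, unless another class had more of its markers among the 10 leading genes. Clusters that go by the name of a class are rebuilt here and need not match the study's own. Counts were summed per class and library, with Poisson intervals for levels, conditional binomial intervals for ratios (0.5 added to each count) and Clopper-Pearson intervals for shares, all at 95%. A gene was measured in a class with at least 20 counts, and counted as higher or lower past 1.5-fold. Populations needed 100 cells in each library to be compared. The text names all members, Mki67 and Top2a, the 3 highest and 3 lowest ratios among members with at least 50 counts, the 3 highest levels of each phase, and up to 2 of each from other lists. Genes standing behind small counts were named after their values were seen. Members, markers and lists were chosen with earlier results of these data known. The interval code was tested on simulated counts. Gene coordinates are those of the GENCODE vM21 annotation, and promoters those of RefSeq. Alternatives covered cell filters, clustering, thinning, the definition of a cycling cell, scaling by TMM (edgeR 4.0.16) or DESeq2 1.42.0 factors, free RNA and doublets.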

Additional observations from a re-analysis of the deposited data

Results flagged for a closer look

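The log2 ratio of the cycling share, combined treatment over imiquimod, had opposite signs in T and NK cell-like cells (-0.63) and in 4 other populations, and in each the intervals of both libraries did not overlap. It was 2.30 in fibroblast-like cluster 14, 1.62 in cluster 22, 1.17 in inflamed keratinocyte-like cells and 0.91 in cluster 8. With 1 library per group, the difference between these ratios was not tested.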

How the results depend on the processing

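Of the recomputed values, 708 of the main results and 892 of the others stayed within the counting interval of the main value. For numbers of members, a change of at most 1.5-fold counted as staying. Of the rest, 33 and 53 moved further, and 5 and 5 reversed. Many intervals were wide, and a reversal was called only where that of the main value excluded 0. The ratio of cycling shares in upper follicle keratinocyte-like cells (0.84) ran down to -0.13 and counted as staying. These numbers are therefore no measure of stability. Over all alternatives the ratio of cycling shares ran from -0.82 to -0.25 in T and NK cell-like cells, from 1.39 to 1.85 in cluster 22 and from 0.06 to 1.47 in inflamed keratinocyte-like cells, where it was 0.19 without thinning and 0.06 by 2 counts of S members. At 1 class mix the ratio was 0.01 without thinning and 0.41 with the combined-treatment mix. The median over all cells (0.19) was -0.09 without the 5% deepest cells and -0.00 with means over cells. Means over cells also gave 15 lower members in macrophage and monocyte-like cells (23 otherwise) and 0.10 for Top2a in fibroblast-like cells (-0.24 otherwise). With at least 50 counts per member, 17 members were lower in fibroblast-like cluster 3 (34 otherwise), since fewer were measured. In cluster 8 the median (0.64) was 1.34 at 10% mitochondrial counts, 1.24 at 5000 genes, 1.27 with doublets, 1.31 at resolution 0.5 and 1.26 with cell cycle genes kept. Its higher members (22) were 42 under each of these and with 20 components, 40 without the deepest cells, 5 at 500 genes and 7 without the 8% highest doublet scores.

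The S share of phase counts over all cells of a class, as a difference in points, was the least stable result. Without the deepest cells it was 5.24 in fibroblast-like cells (8.44 otherwise), 8.94 in sebaceous gland-like cells (2.03), 0.197 in cluster 8 (4.03), 24.5 in lymphatic endothelial-like cells (4.68) and -7.68 in fibroblast-like cluster 14 (-0.723). At 500 genes it was -2.73 in cluster 8, 0.517 in cluster 22 (-3.80 otherwise), 9.14 in upper follicle keratinocyte-like cells (0.322) and 26.3 in lymphatic endothelial-like cells. Upper follicle keratinocyte-like cells gave 7.17 at resolution 2 and 6.35 with 20 components. Fibroblast-like cluster 1 (8.37) gave -4.86 and -2.91 there, and macrophage and monocyte-like cluster 5 (12.9) gave -0.487 with 20 components. With cell cycle genes kept, lymphatic endothelial-like cells gave 24.8. Without the highest doublet scores it was -4.08 in cluster 8, 31.3 in lymphatic endothelial-like cells, -0.00791 in fibroblast-like cluster 1 and 42.0 in cluster 3 (34.0). Without the cell of most G2/M counts, lymphatic endothelial-like cells gave 17.2. The last 2 settings were chosen after seeing the data, and the cause of these changes was not tested. No replicate could be left out with 1 library per group. No paired analysis was possible because each group holds 1 library.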

Other observations

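Melanocyte-like cells, marked by Dct, Pmel and Tyrp1, numbered 52 and 66 and were too few to compare. Their cycling share was 9.62% (3.20 to 21.0) with imiquimod and 18.2% (9.76 to 29.6) with the combined treatment, and 17.3% and 42.4% without thinning. Their G2/M members stood at 681 and 4094 CPM and their S members at 836 and 2066 CPM. In the combined-treatment library 6 cells held 50% of the G2/M counts, and with imiquimod 2 cells did. Of the 28 melanocyte-like cells with Mki67 or Top2a in that library, 24 also held at least 2 other G2/M members.

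Of 2 clusters of differentiating keratinocytes, nearly all cells came from the combined-treatment library. Spinous keratinocyte-like cells, led by genes such as Krt1 and Krt10, numbered 29 and 912, with 3.18% (2.14 to 4.53) cycling among the 912. Cluster 20, led by the cornification genes Hrnr, Lor and Flg, numbered 1 and 245 cells, with 0.408% (0.0103 to 2.25) cycling among the 245.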
